A study of Mus musculus with 6 samples.

Results

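The lysosomal enzymes that take glycosaminoglycan chains apart were followed in Neuro2a cells after knockdown of the transcription factors USF1 and USF2. The set is 9 genes, each a cause of a mucopolysaccharidosis when lost, whose transcript clusters carry exactly 1 gene symbol in the platform annotation: Idua, Ids, Naglu, Sgsh, Hgsnat, Galns, Glb1, Arsb and Gusb. They were chosen by name, and 10 clusters carried their symbols, 2 of them for Arsb, which were averaged. They are 9 of 16583 genes measured in this way. Neuro2a cells come from a mouse neuroblastoma and serve as a model of neurons. RNA of 6 samples was hybridised to Affymetrix Mouse Gene 1.0 ST arrays, which read a gene with many probes along its transcript. The knockdown group held 3 samples of cells transfected with plasmids expressing microRNA-type hairpins against Usf1 and Usf2, and the control group held 3 samples of the same line transfected with an empty vector. The labels state neither the time after transfection nor the share of cells that took up the plasmid, and the signal is that of the whole culture. The titles number biological replicates but name no separate cultures, and the p-values therefore rest on a spread between samples that may be technical.

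Glycosaminoglycans are long sugar chains on proteoglycans, and cells renew them by carrying them to lysosomes. There the chain is shortened from its end by exoglycosidases, which remove a sugar, and sulfatases, which remove a sulfate, and each enzyme can act only after the one before it. Heparan sulfate needs in addition an acetyltransferase of the lysosomal membrane, which caps an exposed amino group so that the next glycosidase can work. When an enzyme of the series is missing, the chain fragment that it would cut collects in lysosomes, which is a mucopolysaccharidosis. The USF proteins belong to the basic helix-loop-helix leucine zipper family and bind E-boxes, short promoter sequences with the core CACGTG. The title of the series names lysosomal genes as regulated by these factors, and the comparison of knockdown with empty vector asks which genes lie downstream of them.

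Each value is a relative log2 signal, given as the difference of an array from the median of the 6 arrays for that cluster. It can be compared between arrays, but the level of a gene is lost, so the enzymes cannot be ranked by abundance. Because the median is 0 by construction, the middle pair of arrays of a gene with 1 cluster lie at equal distances above and below 0. Knockdown array 2 had the widest values, with a standard deviation over all clusters of 0.159 against 0.0531 to 0.0780 on the other 5 arrays. A log2 signal of 4 to 8 or of 8 to 16 before centring, read from the rounding of the numbers, puts a gene in a dimmer or a brighter class. A dimmer cluster whose numbers happen to fit the coarser rounding is read as brighter, so the class of a single gene can be wrong. Of 229 olfactory receptors, genes that few cells express, 7 were placed in the brighter class. On knockdown array 2 the genes of the dimmer class had a median of 0.080 and those of the brighter class -0.026. Naglu, Sgsh, Hgsnat, Galns, Glb1 and Gusb lay in the brighter class, Idua and Ids in the dimmer class, and the clusters of Arsb were split. Usf1 was at -0.28, -0.18 and -0.26 on knockdown arrays 1, 2 and 3 and at 0.18, 0.32 and 0.43 on empty vector arrays 1, 2 and 3. Usf2 was at -0.22, -0.13 and -0.12 with knockdown and at 0.12, 0.28 and 0.27 with empty vector. The groups did not overlap for either target, at 0.682-fold for Usf1 and 0.770-fold for Usf2 (limma adjusted p over all genes of 0.320 and 0.348). Arrays can compress a fold, so how far their RNA fell is not known.

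None of the 9 enzymes passed the threshold of 0.05 in the limma fit adjusted over all 16583 genes, where 0.00603% of genes passed. The lowest adjusted p among the 9 was 0.972 (limma). At an unadjusted limma p under 0.05, 3 enzymes were lower after knockdown (Naglu, Idua and Gusb) and 0 were higher, against 2.65% lower, 1.6% higher and 4.25% in either direction over all genes. The 3 knockdown arrays were all below the 3 empty vector arrays for 4 of the 9 (Naglu, Idua, Sgsh and Gusb), against 5.95% of all genes, and above them for 0, against 4.33% of all genes. In the brighter class, which holds 6 of the 9 and Naglu, Sgsh and Gusb among them, 3.52% of genes were lower at that threshold, 8.61% had all knockdown arrays below, and 59.3% had a change below 0. The 4 with groups apart were all enzymes of heparan sulfate, on which 6 of the 9 act. Idua and Gusb also act on dermatan sulfate and Gusb on chondroitin sulfate, and a difference between substrates was not tested. The changes of the 9, as knockdown minus empty vector, ran between -0.19 and 0.058 on the log2 scale with a median of -0.040, and the median over all genes was -0.000665. The 9 were set out with earlier results of these arrays known, among them those of Idua and Naglu, so the counts describe these samples and carry no test of the set. In RNA of a whole culture, a smaller share of cells with a transcript and less of it in each cell cannot be told apart.

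**Figure D1:**
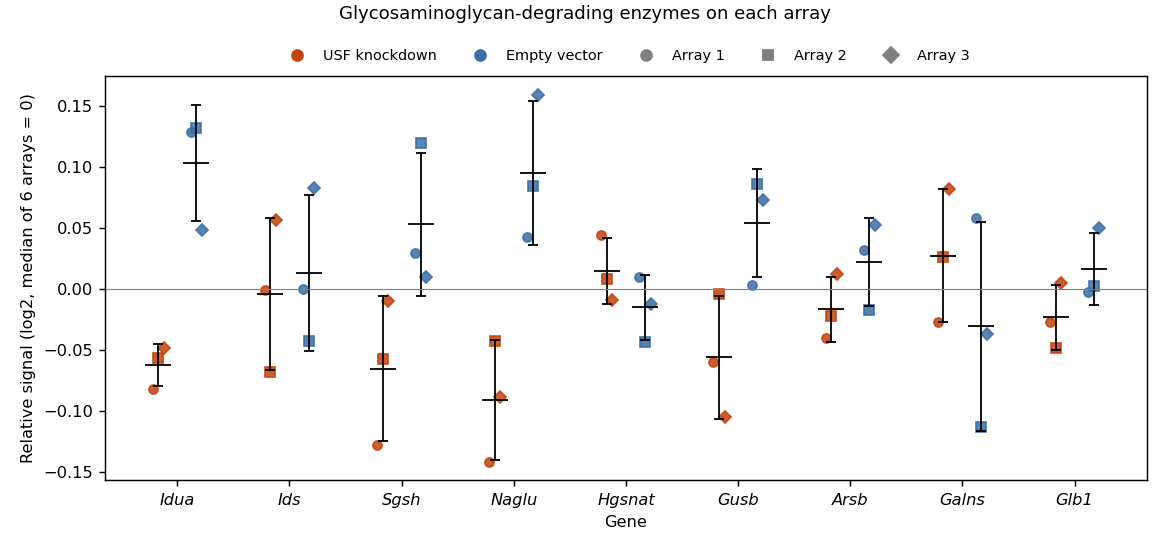
Relative log2 signal (vertical axis, median of the 6 arrays at 0) of each enzyme (horizontal axis) on the 3 knockdown arrays (left, orange) and the 3 empty vector arrays (right, blue), with circles, squares and diamonds for arrays 1, 2 and 3 and bars for the mean and SD of a group. The groups are apart for Idua, Sgsh, Naglu and Gusb and overlap for the other 5 genes.

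Naglu (cluster 10381211) encodes the glycosidase that removes N-acetylglucosamine from the end of heparan sulfate. It was at -0.14, -0.043 and -0.088 on knockdown arrays 1, 2 and 3, against 0.043, 0.085 and 0.16 on empty vector arrays 1, 2 and 3. The groups did not overlap, and knockdown array 2 and empty vector array 1 were the nearest to each other. The mean was -0.091 ± 0.050 with knockdown and 0.096 ± 0.059 with empty vector (SD, n = 3 each). The change was -0.19 ± 0.050 (SE), or 0.879-fold with a 95% interval from 0.811 to 0.952, the lowest of the 9. In limma it was under the unadjusted threshold, with an adjusted p of 0.996 over all genes. Of all genes, 0.965% had a change as low or lower.

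Idua (cluster 10524034) encodes alpha-L-iduronidase, which removes iduronic acid from heparan and dermatan sulfate. It was at -0.082, -0.056 and -0.048 on the knockdown arrays, against 0.13, 0.13 and 0.048 on the empty vector arrays. The knockdown values lay close together, and the groups did not overlap, with empty vector array 3 the lowest of its group. The change was -0.17 ± 0.044 (SE), or 0.892-fold with a 95% interval from 0.831 to 0.956 (under the unadjusted threshold in limma, adjusted p = 0.972). Of all genes, 1.65% had a change as low or lower. On knockdown array 2 Idua was below its own median although the dimmer class to which it belongs was on balance above.

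Sgsh (cluster 10393648) encodes sulfamidase, the sulfatase that frees the amino group of glucosamine in heparan sulfate. Its values were -0.13, -0.057 and -0.0099 on the knockdown arrays, against 0.030, 0.12 and 0.0099 on the empty vector arrays. The groups were apart by only 0.020, between array 3 of each. The change was -0.12 ± 0.051 (SE), or 0.921-fold with a 95% interval from 0.848 to 1.001 (limma adjusted p = 0.996). Sgsh narrowly missed the unadjusted threshold, as its interval shows. Without knockdown array 3 its change was -0.15 and passed that threshold.

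Gusb (cluster 10534102) encodes beta-glucuronidase, which removes glucuronic acid from heparan, dermatan and chondroitin sulfate. It was at -0.059, -0.0035 and -0.10 on the knockdown arrays, against 0.0035, 0.087 and 0.073 on the empty vector arrays. Here knockdown array 2 and empty vector array 1 nearly touched, with a gap of 0.0070. The change was -0.11 ± 0.047 (SE), or 0.927-fold with a 95% interval from 0.859 to 0.9995 (just under the unadjusted threshold in limma, adjusted p = 0.996). With 1 array left out, Gusb stayed under the unadjusted threshold in 2 of 6 fits, those that left out knockdown array 2 or empty vector array 1.

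An exact permutation test (two-sided) gave each of these 4 genes a p of 0.10, which 3 arrays against 3 cannot go below. The remaining enzymes of heparan sulfate did not separate. Hgsnat (cluster 10577882), the membrane acetyltransferase that acts between Sgsh and Naglu, was at 0.044, 0.0085 and -0.0085 on the knockdown arrays, against 0.010, -0.043 and -0.012 on the empty vector arrays. Its groups overlapped, and its change was 0.030 ± 0.041 (SE), with a 95% interval from -0.066 to 0.13 on the log2 scale (exact permutation p = 0.30). In array signal, the lower end of that interval is 0.955-fold and does not reach the 0.879-fold estimated for Naglu. The interval of Naglu itself ran up to 0.952-fold, and the difference between these genes was not tested. Ids (cluster 10604906), the sulfatase that acts on iduronic acid before Idua, was at -0.00054, -0.068 and 0.057 with knockdown, against 0.00054, -0.043 and 0.083 with empty vector. The arrays of both groups were mixed over the whole range. Its change was -0.017 ± 0.053 (SE), with a 95% interval from -0.14 to 0.11 (exact permutation p = 0.70), and its sign turned without knockdown array 2 (0.015) or empty vector array 3 (0.017).

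The enzymes that act on keratan sulfate, or on dermatan and chondroitin sulfate without heparan sulfate, all overlapped between groups. Arsb encodes arylsulfatase B, which removes a sulfate from the galactosamine of dermatan and chondroitin sulfate. The average of its clusters (10406663 and 10406672) was at -0.040, -0.022 and 0.013 with knockdown, against 0.032, -0.017 and 0.053 with empty vector, a change of -0.039 ± 0.042 (SE, exact permutation p = 0.20). The clusters did not order the arrays alike: 10406663 was at -0.027, -0.068 and 0.062 with knockdown and at 0.079, -0.050 and 0.027 with empty vector, and 10406672 was at -0.054, 0.024 and -0.036 with knockdown and at -0.015, 0.015 and 0.078 with empty vector. Galns (cluster 10582403) encodes the sulfatase that acts on galactose of keratan sulfate and galactosamine of chondroitin sulfate. It was at -0.027, 0.027 and 0.082 with knockdown, against 0.058, -0.11 and -0.036 with empty vector. Its change of 0.058 ± 0.057 (SE, exact permutation p = 0.40) was the highest of the 9, with a 95% interval from -0.074 to 0.19, and empty vector arrays 1 and 2 lay at opposite ends of their group. Without empty vector array 2 the change of Galns was 0.016, and without empty vector array 1 it was 0.10. Glb1 (cluster 10589889) encodes lysosomal beta-galactosidase, which removes galactose from keratan sulfate and from a ganglioside. It was at -0.026, -0.048 and 0.0051 with knockdown, against -0.0023, 0.0023 and 0.051 with empty vector. Its change was -0.040 ± 0.041 (SE), with a 95% interval from -0.14 to 0.056 (exact permutation p = 0.30).

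**Figure D2:**
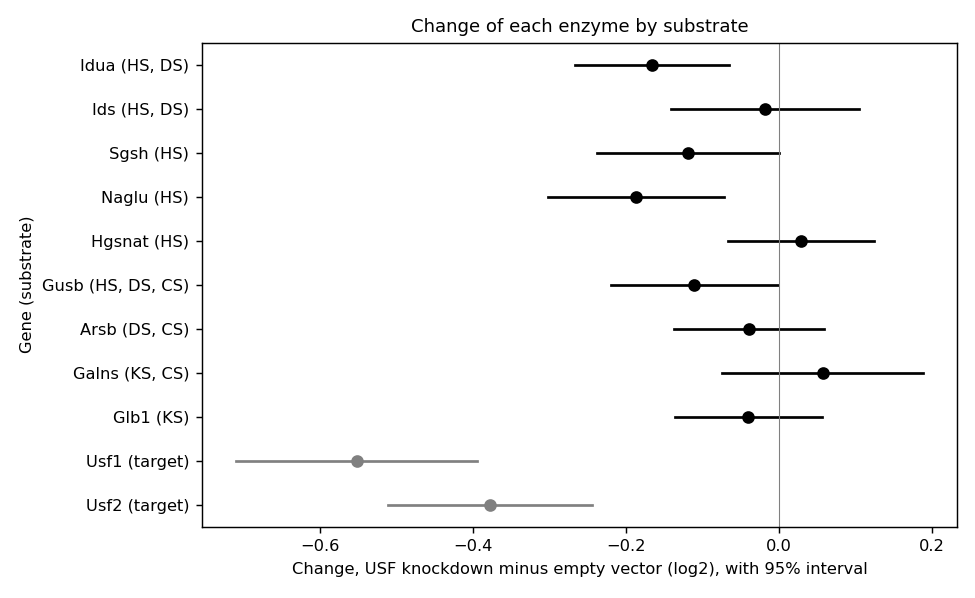
Change of each gene (horizontal axis, log2, knockdown minus empty vector) as a point with its 95% interval from limma, with the substrate in brackets (HS, heparan; DS, dermatan; KS, keratan; CS, chondroitin sulfate). The intervals of Idua, Naglu and Gusb lie below 0, that of Gusb with its upper end at -0.000707, and those of the other 6 enzymes include 0; Usf1 and Usf2 in grey lie at -0.55 and -0.38.

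By substrate, the 6 heparan sulfate enzymes had a median change of -0.11, with 3 lower at an unadjusted limma p under 0.05 and 4 with groups apart, against 2.65% lower and 5.95% apart in this direction over all genes. Their median difference from the empty vector mean was -0.15, -0.096 and -0.11 on knockdown arrays 1, 2 and 3. With 4 of the 6 apart in this direction, this median must lie below 0 on each knockdown array, so its sign adds nothing to that count. The 4 dermatan sulfate enzymes, which include Idua and Gusb, had a median change of -0.075, with 2 lower at an unadjusted p under 0.05 and 4 of 4 changes below 0, as were 50.4% of all genes. The 3 chondroitin sulfate enzymes had a median of -0.039, with 1, Gusb, lower at an unadjusted p under 0.05. The 2 keratan sulfate enzymes had a median of 0.0088, with 0 past that threshold, and on the 3 knockdown arrays their median difference was -0.020, -0.0038 and 0.050. These lists share Idua, Ids, Gusb, Arsb and Galns among them, and the differences between substrates were not tested. By kind of enzyme, the 4 glycosidases (Idua, Naglu, Glb1 and Gusb) had changes below 0, as had 50.4% of all genes, with a median of -0.14 and 3 lower at an unadjusted limma p under 0.05, against 2.65% of all genes. The 4 sulfatases (Ids, Sgsh, Galns and Arsb) had a median of -0.028, with 0 past that threshold and 1, Sgsh, with groups apart. The difference between the kinds of enzyme was not tested. Across the 6 arrays the 6 pairs among Naglu, Idua, Sgsh and Gusb had Pearson r between 0.65 (Sgsh and Gusb) and 0.88 (Naglu and Gusb). Pairs of enzymes whose groups overlapped reached similar values, with 0.81 for Ids and Glb1 and 0.81 for Glb1 and Arsb. The lowest r of the 9 enzymes was -0.91, between Sgsh and Hgsnat. These points share the same 6 arrays and the same split into groups, and r is given as a description.

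**Figure D3:**
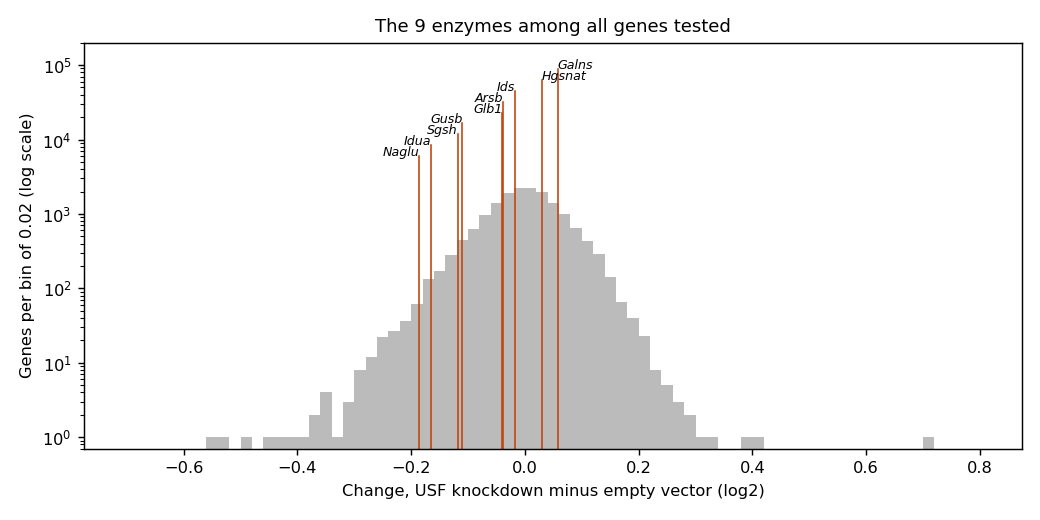
Number of genes per bin of change (vertical axis, log scale) against the change (horizontal axis, log2, knockdown minus empty vector) for all 16583 genes in grey, with the 9 enzymes as named orange lines. Naglu at -0.19 and Idua at -0.17 lie in the lower flank, and Galns at 0.058 is the highest of the 9.

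USF factors bind E-boxes, so the promoters of the 9 genes were read for the core CACGTG, which is its own reverse complement, in the window of 250 bases before to 50 after the gene start (RefSeq, GRCm38.p6). A window was at hand for 7 of the 9, all but Hgsnat and Galns. Of these 7, 3 held the core, Naglu, Sgsh and Glb1, each with 1 match, against 10.6% of the 13071 tested genes with a window. In all 3 the core was extended to TCACGTG on either strand, which overlaps the core by construction, against 6.01% of those genes. Counted from the gene start, the core began at -73 in Naglu, at -48 in Glb1 and at -29 in Sgsh. The 250 bases before the start of these genes are given with the core in capitals, followed by those of Idua, which had the next lowest change after Naglu and no match.
Naglu, chr11:101069844-101070093, plus strand: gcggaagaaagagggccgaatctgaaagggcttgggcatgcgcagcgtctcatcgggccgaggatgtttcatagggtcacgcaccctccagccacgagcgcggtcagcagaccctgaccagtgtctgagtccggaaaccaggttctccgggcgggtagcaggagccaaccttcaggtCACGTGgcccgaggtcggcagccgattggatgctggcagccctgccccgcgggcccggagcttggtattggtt
Sgsh, chr11:119355511-119355760, minus strand: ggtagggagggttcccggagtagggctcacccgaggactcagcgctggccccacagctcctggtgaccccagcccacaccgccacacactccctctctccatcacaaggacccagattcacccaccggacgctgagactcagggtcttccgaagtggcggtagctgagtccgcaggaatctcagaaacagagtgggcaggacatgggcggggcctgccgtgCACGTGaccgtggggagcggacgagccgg
Glb1, chr9:114400828-114401077, plus strand: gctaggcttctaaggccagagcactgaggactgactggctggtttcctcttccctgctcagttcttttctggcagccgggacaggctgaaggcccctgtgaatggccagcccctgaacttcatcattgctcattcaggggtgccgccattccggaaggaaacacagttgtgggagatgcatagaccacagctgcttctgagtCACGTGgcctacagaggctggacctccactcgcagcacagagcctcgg
Idua, chr5:108660081-108660330, plus strand: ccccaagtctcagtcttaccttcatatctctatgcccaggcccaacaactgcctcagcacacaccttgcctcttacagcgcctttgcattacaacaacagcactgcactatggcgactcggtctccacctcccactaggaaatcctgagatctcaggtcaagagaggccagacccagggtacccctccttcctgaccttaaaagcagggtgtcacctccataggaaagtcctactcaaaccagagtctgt
The match did not sort the enzymes by their change. Naglu and Sgsh with the core had changes of -0.19 and -0.12, but Glb1 with the core had -0.040. Of the windows without it, those of Idua and Gusb belonged to genes with changes of -0.17 and -0.11, and those of Ids and Arsb to genes with -0.017 and -0.039. Over all tested genes with a window, 4.62% of the 1385 with the core were lower and 2.31% higher at an unadjusted limma p under 0.05, against 2.44% lower and 1.57% higher of the 11686 without it. For the 786 with the extended core, 6.11% were lower and 3.05% higher at that threshold. The medians of the change were -0.0033 with the core, -0.0040 with the extended core and -0.0012 without the core. A match in this window does not show that a USF factor binds there, and binding was not measured on these arrays.

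Some of the enzyme genes overlap others in the RefSeq annotation, and the arrays were read for these neighbours. Of the genes overlapping Idua, the diacylglycerol kinase Dgkq was at -0.070, -0.077 and -0.0058 with knockdown, against 0.066, 0.0058 and 0.10 with empty vector. Its change was -0.11 ± 0.046 (SE, under the unadjusted threshold in limma, adjusted p = 0.996) and its groups did not overlap. Over all genes, 2.65% were lower at that threshold and 5.95% had groups apart in this direction, and the neighbours were added after the values were seen. The sulfate transporter Slc26a1, which also overlaps Idua, had a change of 0.036 ± 0.075 (SE). Slc26a11 and Card14, which overlap Sgsh, had changes of 0.030 ± 0.049 and 0.0096 ± 0.056 (SE). Tmppe, which overlaps Glb1, had -0.026 ± 0.066 (SE), and Trappc2l, which overlaps Galns, -0.015 ± 0.041 (SE). Which probes of a cluster lie in shared sequence was not tested.

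The other genes of glycosaminoglycan turnover gave 0 calls in the limma fit adjusted over all genes, with adjusted p of 0.616 or more for each gene named here. Of 8 other degradation genes measured of 12 symbols listed (Tmem2 and Cemip2 name the same gene), 2 were lower and 1 higher at an unadjusted limma p under 0.05, against 2.65% lower and 1.6% higher over all genes. Groups apart were thus not particular to the 9 enzymes. Of these 8 genes, 2 had all knockdown arrays below and 2 above all empty vector arrays, against 5.95% and 4.33% of all genes. Hexa, a subunit of hexosaminidase, which also acts on chondroitin, dermatan and keratan sulfate, had a change of -0.24 ± 0.045 (SE). The membrane-anchored hyaluronidase Hyal2 had -0.12 ± 0.042 (SE). Hpse, the endoglycosidase heparanase that cuts heparan sulfate within the chain, was higher, at 0.14, 0.033 and 0.14 on the knockdown arrays, against -0.13, -0.033 and -0.11 on the empty vector arrays. Its groups did not overlap, and its change was 0.19 ± 0.051 (SE, limma adjusted p = 0.972), opposite in sign to those of Naglu and Idua. Of 8 partners and sorting factors measured of 9 listed, 1 was lower at that threshold, against the same 2.65%. This was Sumf1, which activates sulfatases in the endoplasmic reticulum, with a change of -0.18 ± 0.049 (SE). Of the 8 partners and sorting factors, 2 had groups apart in the lower and 1 in the higher direction, against the same 5.95% and 4.33%.

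Of 66 genes of chain synthesis and core proteins, 2 were lower and 1 higher at an unadjusted limma p under 0.05, a share near the 4.25% of all genes. Of the 11 shared by several chains, 1 was lower at an unadjusted limma p under 0.05. It was Papss2, which makes the sulfate donor, at -0.11, -0.30 and -0.035 with knockdown and 0.060, 0.098 and 0.035 with empty vector, a change of -0.21 ± 0.070 (SE). Without knockdown array 2 that change was -0.14. Of 16 heparan sulfate synthesis genes measured of 20 listed, 1 was lower and 1 higher at that threshold. The N-deacetylase and N-sulfotransferase Ndst4 had a change of -0.15 ± 0.042 (SE), and the sulfotransferase Hs6st3 had 0.18 ± 0.076 (SE), or 0.099 without knockdown array 2. Of the 15 chondroitin and dermatan sulfate synthesis genes, the 5 of keratan sulfate and the 19 core proteins measured, 0 passed an unadjusted limma p of 0.05 in either direction. The medians of the change over the 7 lists lay between -0.031 and 0.015.

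**Figure D4:**
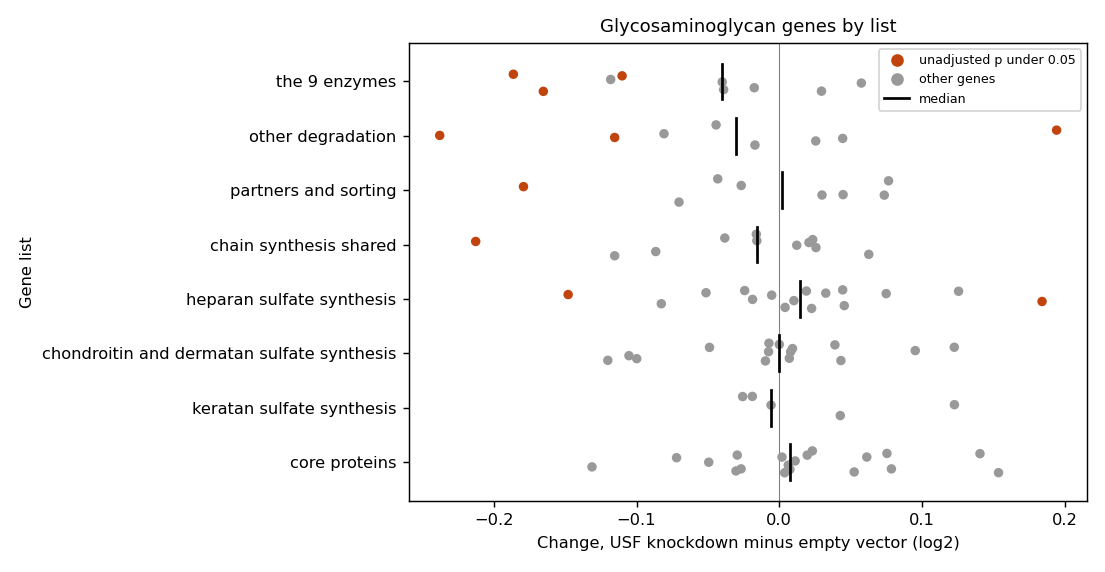
Change of each measured gene (horizontal axis, log2, knockdown minus empty vector) for the 9 enzymes and 7 lists of glycosaminoglycan genes (vertical axis), with orange points for an unadjusted limma p under 0.05 and a black line for the median of the list. The enzymes have the lowest median, -0.040, close to the -0.031 of the other degradation genes. Of the 9 enzyme points 3 are orange, all below 0, and of the 8 other degradation points 2 are orange below 0 and 1 above.

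Markers of other cell types were read beside the enzymes. Macrophages are rich in lysosomal enzymes, and 5 of 8 macrophage markers were measured, 0 of them in the brighter class. Their changes lay between 0.025 and 0.079, with 0 at an unadjusted limma p under 0.05, and the median of the list was 0.047, 0.052 and 0.0088 on the knockdown arrays, against -0.039, -0.0088 and -0.058 on the empty vector arrays. The separation thus held for the median of the list. Of the 5 genes taken singly, 1 had its groups apart in the higher direction, against 4.33% of all genes. Of 6 fibroblast markers 5 were measured, 0 in the brighter class, with medians of 0.0010, 0.24 and -0.090 on the knockdown arrays and 0.0049, 0.035 and -0.066 on the empty vector arrays. Of 12 neuroblast markers 10 were measured, 8 in the brighter class, with a median change of -0.015. At an unadjusted limma p under 0.05, 1 was lower, against 2.65% of all genes, and 0 were higher, against 1.6%. The lower gene was Dbh, the enzyme that makes noradrenaline, which lay in the dimmer class and was named after its values were seen. It was at -0.12, -0.22 and -0.073 on the knockdown arrays, against 0.12, 0.073 and 0.13 on the empty vector arrays, a change of -0.25 ± 0.051 (SE), below that of each of the 9 enzymes. Since the level of a gene is lost, which of these markers are absent from the cells could not be read, and the part of other cells in the enzyme values was not tested.

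By the rule for likeness of pattern, Pearson r over the 6 arrays, Idua was most like Ccsap (r = 0.996), Sgpl1 (0.988) and Gm45914 (0.983). Their changes were -0.045 ± 0.039, -0.16 ± 0.042 and -0.18 ± 0.045 (SE). Naglu was most like Mtx1 (r = 0.997), Gng7 (0.988) and Ung (0.982), with changes of -0.073 ± 0.040, -0.069 ± 0.040 and -0.067 ± 0.042 (SE). These are the highest r with all other genes over only 6 arrays, so high values come with the search itself. They describe these arrays, carry no test and show no link between the genes. Pearson r does not depend on the size of a change, which differed widely among these genes.

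With 1 array left out at a time, the changes of Naglu (-0.21 to -0.15) and Idua (-0.19 to -0.15) stayed under an unadjusted limma p of 0.05 in 6 of 6 fits. The change of Sgsh lay between -0.15 and -0.085 and that of Gusb between -0.14 and -0.086, under that threshold in 1 and 2 of the 6 fits. The change of Naglu without the wide knockdown array 2 was -0.21 and that of Idua -0.17. Precision is limited by the 6 arrays, and over all genes the standard error of a change had a median of 0.0561.

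**Figure D5:**
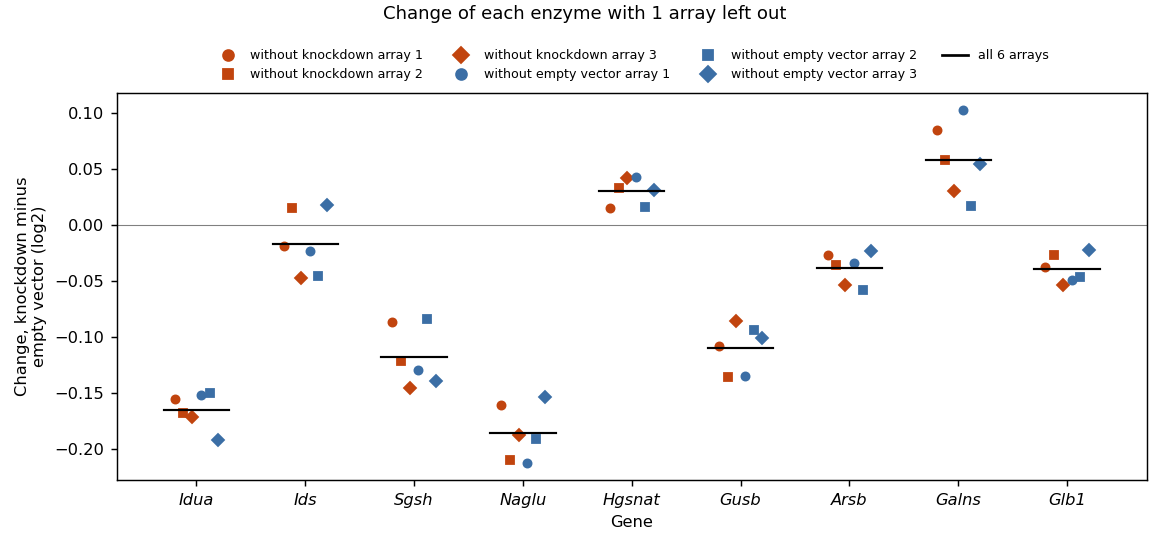
Change of each enzyme (vertical axis, log2, knockdown minus empty vector) with all 6 arrays (black line) and without each array in turn (symbols, orange for a knockdown array left out and blue for an empty vector array). The points of Naglu, Idua, Sgsh and Gusb all lie below 0, and those of Ids lie on both sides of 0.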

How the data were processed

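Per the labels' protocols, RNA was extracted with RNeasy and labelled with WT Expression (Ambion) and WT Terminal Labeling (Affymetrix) reagents. The log2 values deposited by the authors form 1 table of 22891 transcript clusters by 6 arrays, in which each cluster was centred to a median of 0 (largest absolute median 5e-07). That the scale is log2 was read from the rounding: array differences fell on the single-precision grid (tolerance 0.05 of a step) of numbers between 4 and 16, and the grid gave the brightness class. Values printed with 3 digits were left out of that reading. The log base, background correction and normalization are not given in the labels used here. Gene names came from the platform annotation: 18087 clusters had 1 symbol, 1145 several and 3659 none, and clusters of 1 gene were averaged. Changes were fitted over all genes by limma 3.58.1 under R 4.3.3 (lmFit, eBayes, Benjamini-Hochberg, two-sided, 4 residual and 3.79 prior degrees of freedom). The code was run on simulated arrays of equal spread with changes larger than those of the enzymes. That run does not show how the fit performs at the sizes and unequal spread reported here. Intervals are 95% intervals of that fit, and folds are changes taken out of log2. The named genes are the 9 enzymes, the targets, up to 6 genes per pathway list at an unadjusted p under 0.05 and the 3 genes most like each of the 2 enzymes with the lowest p. The neighbours of the enzyme genes were added after the values were seen. Members and lists were chosen with earlier results of these data known. Alternatives were other normalizations, cluster rules, variance models, a brightness filter, a replicate block and leaving out each array. Figures used Python 3.11.15 and matplotlib 3.10.9.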

Additional observations from a re-analysis of the deposited data

How the results depend on the processing

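Over 15 alternatives, 126 of the 132 values for single enzymes kept their sign and their side of the adjusted threshold. Array quality weights gave 1111 genes past an adjusted p of 0.05 in limma, against 1, and 4 enzymes past it, against 0: Naglu (0.00518), Idua (0.0141), Sgsh (0.0225) and Gusb (0.0337). Of the 2 targets and the 7 pathway genes named in the report, Usf1, Usf2, Hexa, Sumf1, Papss2 and Ndst4 (lower) and Hpse (higher) passed there too, with adjusted p between 0.000345 and 0.0362. That fit put a weight of 33 on knockdown array 1 and of 0.136 and 0.441 on knockdown arrays 2 and 3, so it rests in effect on 1 knockdown array. With these weights 5 enzymes were lower and 1 higher at an unadjusted p under 0.05, and the median change of the 9 was -0.063. The share of all genes at that threshold was not computed for the weighted fit. The 2.65% lower and 1.6% higher belong to the fit without weights, so these counts have no background to be read against. In the other 14 alternatives the lowest adjusted p of any enzyme was 0.262. With the brighter class alone, where 6 of the 9 could be tested, the median was -0.075. Scaling the arrays to equal spread gave 0 genes past the adjusted threshold, as did the replicate block. Same-numbered arrays had correlations of 0.003, 0.082 and 0.036 between their deviations from the group means, so the numbers were not taken as pairs, and the block left 2 enzymes lower at an unadjusted p under 0.05, against 3. Leaving out 1 array gave 0 to 1 genes past the adjusted threshold, 2 to 3 enzymes lower at an unadjusted p under 0.05, and a median of -0.059 to -0.024. Only Ids turned its sign, within a range of -0.048 to 0.017 without 1 array. The cause of these shifts was not tested. Signal over background is lost in the centred values, so a flat value of a dim gene such as Ids may lie below what the array can read. Idua is in the same dimmer class, and how far its signal lay above background cannot be read either.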
